A study of Mus musculus with 38 samples.

Results

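The 10 genes described here encode chemokines that intestinal epithelial cells are known to make: Cxcl1, Cxcl2, Cxcl3, Cxcl5, Cxcl9, Cxcl10, Cxcl16, Ccl20, Ccl25 and Ccl28. They were taken by gene name from the 46078 gene rows of the deposited count files, and all 10 were found once. Their RNA was measured by RNA sequencing in 38 libraries, each from the isolated intestinal epithelial cells of 1 C57BL/6 mouse. KO mice carry floxed Hk2 (hexokinase 2, the first enzyme of glycolysis) and Cre recombinase driven by the Villin promoter, which is active in gut epithelium, so that other cells of these mice keep Hk2. WT mice are littermates with both Hk2 alleles floxed and no Cre, so every group carries the floxed alleles. DSS (dextran sodium sulfate, a polymer that injures the gut epithelium) was given at 1.5% weight by volume in drinking water to males of 10 to 12 weeks, and the genotypes were housed together. The WT groups held 4 mice on day 0, 7 on day 3 and 7 on day 7, and the KO groups held 5, 8 and 7. Untreated mice of the study were 9 to 11 or 86 to 92 weeks old, and which of these the day 0 mice were, and their sex, is not given in the sources used here. The series text speaks of colon tissue where the sample labels speak of epithelial cells.

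Chemokines are small secreted proteins that draw leukocytes along a gradient through receptors on those cells. Cxcl1, Cxcl2, Cxcl3 and Cxcl5 are the ELR ligands, named for a short amino acid motif, and attract neutrophils through the receptor Cxcr2; in gut epithelium they are known targets of NF-kB, the transcription factor downstream of interleukin 1, TNF and Toll-like receptors. Cxcl9 and Cxcl10 are induced by interferons and attract T cells through Cxcr3. Cxcl16 is made as a membrane protein, is cut free by the proteases Adam10 and Adam17, and binds Cxcr6 on T and innate lymphoid cells. Ccl20 binds Ccr6, Ccl25 is best known from the small intestine and binds Ccr9, and Ccl28 is best known from the colon, where it attracts antibody-secreting cells through Ccr10.

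Promoters of the inducible members are shown first, because several of them share the same letters near the start of the gene. RefSeq windows of 300 bases (GRCm38.p6, from 250 bases before to 50 after the start) had an entry for 8 of the 10 members; Cxcl5 and Cxcl16 had none. Each line gives part of the window on the strand of the gene, 5′ to 3′. For Cxcl1, Cxcl2, Cxcl3 and Ccl20 (110 to 11 bases before the start) capitals mark matches to the 10-letter NF-kB consensus on either strand. For Cxcl10 (220 to 71 bases before the start) capitals also mark GAAANNGAAA, the core of an interferon response element, and for Cxcl9 (140 to 21 bases before the start) they mark the shorter NF-kB form GGGNNTTCC.
Cxcl1, chr5:90891135-90891234, + strand: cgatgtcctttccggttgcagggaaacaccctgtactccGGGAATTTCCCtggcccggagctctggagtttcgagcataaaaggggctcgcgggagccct
Cxcl2, chr5:90903789-90903888, + strand: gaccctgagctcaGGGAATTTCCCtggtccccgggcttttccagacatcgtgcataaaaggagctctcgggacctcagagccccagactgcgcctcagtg
Cxcl3, chr5:90785991-90786090, + strand: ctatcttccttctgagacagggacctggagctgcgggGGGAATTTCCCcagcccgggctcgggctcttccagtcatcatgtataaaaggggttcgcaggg
Cxcl10, chr5:92348960-92349109, - strand: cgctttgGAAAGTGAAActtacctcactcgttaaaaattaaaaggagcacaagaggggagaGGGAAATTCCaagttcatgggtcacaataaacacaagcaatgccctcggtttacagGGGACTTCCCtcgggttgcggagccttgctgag
Cxcl9, chr5:92328100-92328219, - strand: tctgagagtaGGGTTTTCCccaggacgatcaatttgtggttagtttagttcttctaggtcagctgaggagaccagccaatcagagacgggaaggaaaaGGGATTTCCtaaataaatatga
Ccl20, chr1:83116656-83116755, + strand: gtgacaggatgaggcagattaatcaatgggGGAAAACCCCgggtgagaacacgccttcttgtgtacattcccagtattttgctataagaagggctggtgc

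Cxcl1, Cxcl2 and Cxcl3 hold the same 10 letters, GGGAATTTCC, beginning 71, 97 and 73 bases before the start of the RefSeq entry. For Cxcl2 that start lies inside the gene as deposited, which begins at 90903871, and the printed part ends at 90903888. The distance for Cxcl2 is therefore shorter by the deposited start. These exact letters, searched on both strands, were in 29 of 32851 RefSeq promoter windows (0.0883%). Because the run ends in a further C, the consensus also matches there on the other strand, shifted by 1 base. The NF-kB consensus was in 4.51% of all windows, and among members it was also found in Cxcl10, 159 and 103 bases before the start, and in Ccl20, on the opposite strand. GAAANNGAAA was in 3.44% of windows and, among members, in Cxcl10 alone, 213 bases before the start. GGGNNTTCC, which overlaps the consensus match in Ccl20 and the one nearer the start in Cxcl10, was in 5.82% of windows. Besides those genes it was found in Cxcl9, 130 and 42 bases before the start, and in 1 of the entries of Ccl25, where it spans the start. TTCNNNGAA, a STAT site form held by 8.3% of windows, was in no member window. A match describes letters only; binding was not measured.

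In the deposited coordinates (GRCm38), 6 members lie on chromosome 5. The ELR ligands stand on the + strand in the order Cxcl5 (chr5:90759360-90761624), Cxcl3 (chr5:90786103-90789600), Cxcl1 (chr5:90891241-90893115) and Cxcl2 (chr5:90903871-90905938). Cxcl9 (chr5:92321347-92328079) and Cxcl10 (chr5:92346638-92348889) are neighbours on the - strand. The others are Cxcl16 (chr11:70453983-70459984), Ccl20 (chr1:83116766-83119167), Ccl25 (chr8:4325210-4360020) and Ccl28 (chr13:119623819-119654354). Reads were counted without regard to strand.

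Total counts were 10.5 to 60.6 M (mega) per library. Hk2 checked the labels: it was at 254 to 449 CPM (counts per M total counts, with the TMM scaling of edgeR) in WT day 0 and 33.1 to 118 CPM in KO day 0. On day 3 it was at 97.0 to 220 CPM in WT and 68.4 to 128 CPM in 7 of the 8 KO libraries, but at 435 CPM in the library labelled d3_KO_345, above every WT library of that day. The WT library d3_WT_346, at 97.0 CPM, was inside the range of those 7 KO libraries, so Hk2 did not separate the genotypes fully on day 3. On day 7 Hk2 was at 228 to 611 CPM in WT and 56.1 to 268 CPM in KO, where d7_KO_420 was inside the WT range. The changes of members that the library labelled d3_KO_345 moved most are given with and without it; genes that are no members, and the genes most like each member, were not recomputed without it. Day 0 libraries carry another prefix in their names than those of days 3 and 7, so effects of this other set of libraries, of the age or sex of the day 0 mice, and of the day cannot be told apart. The 8 epithelial markers (Epcam, Cdh1, keratins and others) summed to 9488 to 19082 CPM over the 6 groups, and no epithelial, small intestine or colon marker was at 0 in all libraries of a group. The 11 small intestine markers summed to 1285 CPM in d3_WT_381, against a median of 305 CPM in WT day 3. Each library is 1 animal, so p-values measure the spread between animals.

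Per length of transcript, Ccl28 was the highest member at rest and in early colitis. Its median level was 33.0 RPKM (CPM per kilobase of exon) in WT day 0, 30.6 RPKM in KO day 0, 38.2 RPKM in WT day 3 and 35.4 RPKM in KO day 3. In these groups the next member was Cxcl16, at a median of 2.27 to 3.94 RPKM. On day 7 the median of Cxcl2 reached 21.2 RPKM in WT and 21.6 RPKM in KO, beside 31.6 and 26.5 RPKM for Ccl28. The means put them in the other order on day 7, at 45.1 ± 46.2 RPKM in WT and 46.5 ± 66.6 RPKM in KO for Cxcl2 (SD, n = 7 each), so these neighbours did not differ beyond their spread. Cxcl3 had the lowest median of all members in each group of days 0 and 3, at 0.018 to 0.028 RPKM.

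**Figure D1:**
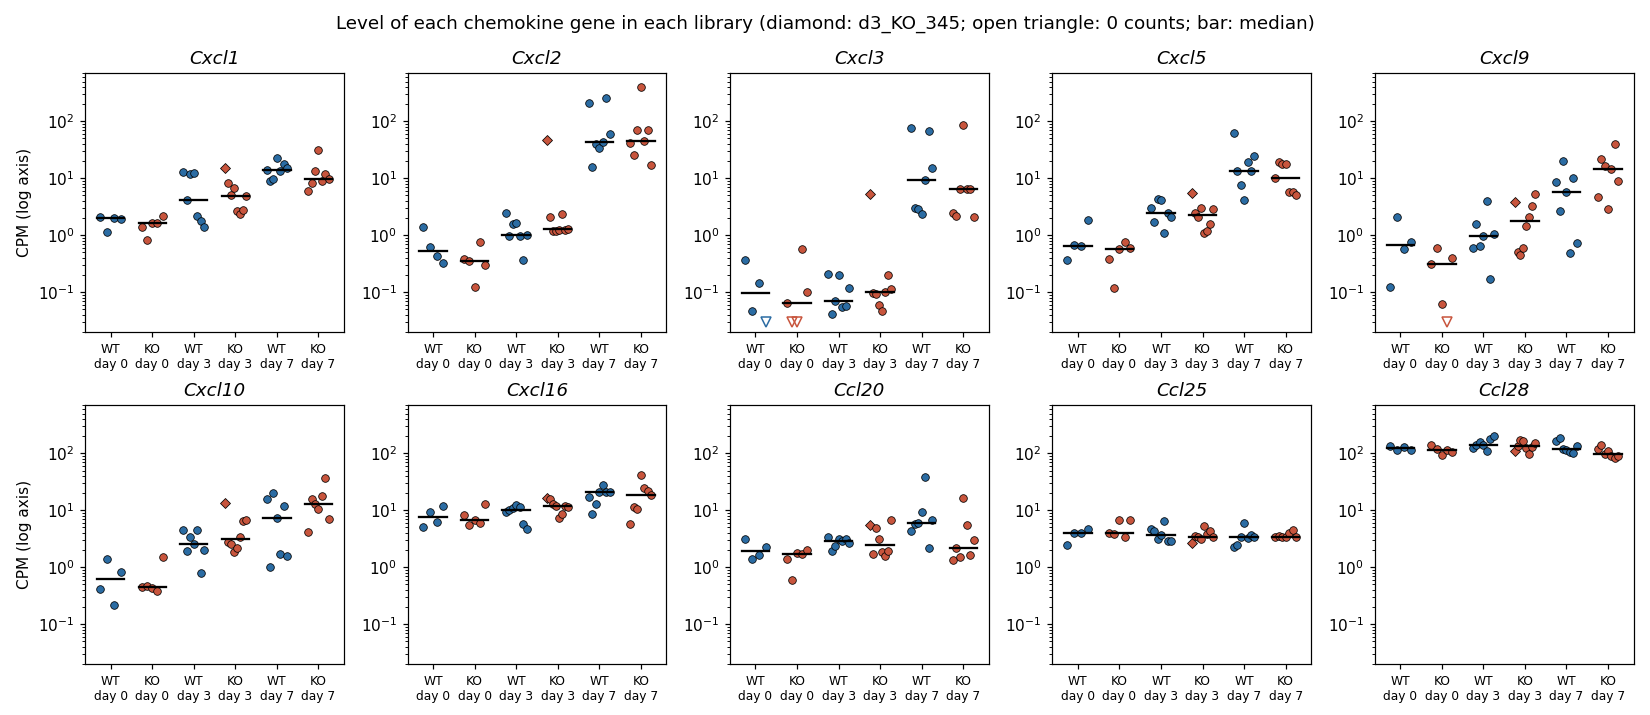
Level of each chemokine gene in CPM on a log axis, for every library of the 6 groups (blue WT, red KO); bars are group medians, diamonds the library labelled d3_KO_345 and open triangles libraries with 0 counts. Cxcl2 and Cxcl3 lie apart between day 3 and day 7 except for that library (46.1 and 5.34 CPM), whereas Ccl25 and Ccl28 stay between 2.25 and 6.74 CPM and between 82.2 and 199 CPM over all 38 libraries.

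The largest changes among the members from day 3 to day 7 were in the neutrophil attractants Cxcl2 and Cxcl3. In WT mice Cxcl2 went from 0.362 CPM at the lowest, 0.998 at the median and 2.49 at the highest on day 3 to 15.9, 43.8 and 255 CPM on day 7. Every WT library of day 7 was above every WT library of day 3. The log2 fold change was 6.14 (SE 0.68, adjusted p = 5.90e-05 by edgeR). In such bulk samples more cells of a type and more RNA per cell cannot be told apart. In KO mice Cxcl2 was at 1.19, 1.26 and 46.1 CPM on day 3 (lowest, median, highest) and at 16.8, 44.6 and 405 CPM on day 7. The groups overlapped only through the library labelled d3_KO_345, the next highest library of KO day 3 being at 2.32 CPM. The KO log2 fold change was 3.71 (SE 1.00, adjusted p = 0.0144 by edgeR) and 5.96 (adjusted p = 3.71e-05) without that library. It was 2.62 (adjusted p = 0.0403) without d7_KO_420, which was at 405 CPM where the next KO library of day 7 was at 69.5 CPM.

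Cxcl3 was close to the detection limit before day 7. On day 3 it was at 0.0409, 0.0712 and 0.209 CPM in WT (lowest, median, highest) and, without the library labelled d3_KO_345, at 0.0458, 0.098 and 0.202 CPM in KO. These are 1 to 10 counts per library in WT. A count of 3 corresponds to 0.0598 to 0.112 CPM there without TMM scaling. The levels given are scaled, and 1 count in d3_WT_381 was 0.0548 CPM. On day 7 it was at 2.40, 9.29 and 75.6 CPM in WT and 2.09, 6.40 and 87.9 CPM in KO. The log2 fold change was 7.78 in WT (SE 1.03, adjusted p = 0.000137 by edgeR) and 4.33 in KO (SE 1.17, adjusted p = 0.0152 by edgeR). The KO value became 7.23 (adjusted p = 0.000243) without d3_KO_345, and 2.47 (adjusted p = 0.0739) without d7_KO_420, the highest library of KO day 7. In both genotypes a few animals stood far above the rest on day 7: d7_WT_356 and d7_WT_419 at 75.6 and 68.5 CPM, with the next WT library at 15.4 CPM, and d7_KO_420 at 87.9 CPM, with the next KO library at 6.60 CPM.

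Cxcl5, which is known as a mainly epithelial ELR ligand, rose in both genotypes. It was at 1.10, 2.44 and 4.30 CPM in WT day 3 and 4.18, 13.4 and 62.1 CPM in WT day 7, and the groups overlapped by 1 library, d7_WT_386. The log2 fold change was 2.90 (SE 0.50, adjusted p = 0.000938 by edgeR). In KO it was at 1.08, 2.25 and 5.40 CPM on day 3 and at 5.17, 10.2 and 19.2 CPM on day 7, with a log2 change of 2.21 (SE 0.38, adjusted p = 0.000695 by edgeR). The KO groups overlapped only through d3_KO_345.

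Cxcl1 differed from the other ELR ligands in that WT animals were already spread over a wide range on day 3. In WT day 3 it was at 12.0 to 12.8 CPM in 3 libraries and at 1.39 to 4.20 CPM in the other 4. On day 7 it was at 8.85, 14.1 and 22.5 CPM in WT, with a log2 fold change of 1.09 (SE 0.47) that missed the threshold (adjusted p = 0.119 by edgeR). In KO it was at 2.35, 4.96 and 15.2 CPM on day 3 and 6.09, 9.62 and 31.2 CPM on day 7. The KO log2 fold change was 1.04 (SE 0.41, adjusted p = 0.0912 by edgeR), and it passed the threshold without d3_KO_345, at 1.38 (adjusted p = 0.0134).

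Cxcl9, the interferon-induced T cell attractant, rose in both genotypes with a wide spread between animals. In WT it was at 0.172, 0.950 and 4.06 CPM on day 3 and 0.496, 5.83 and 19.9 CPM on day 7, and the groups overlapped. The WT log2 fold change was 2.47 (SE 0.76, adjusted p = 0.032 by edgeR). It did not keep the threshold when any 1 of 9 single libraries was left out, with the highest adjusted p, 0.0729, and the lowest fold change, 1.90, without d7_WT_370. In KO it was at 0.457, 1.77 and 5.29 CPM on day 3 and 2.86, 14.4 and 40.6 CPM on day 7, with a log2 change of 2.80 (SE 0.61, adjusted p = 0.00388 by edgeR).

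Cxcl10, the other interferon-induced ligand of Cxcr3, passed the threshold in KO and not in WT, at the same size of change. The KO libraries were at 1.88, 3.09 and 13.6 CPM on day 3 and at 4.11, 13.1 and 37.2 CPM on day 7, a log2 change of 1.57 (SE 0.48, adjusted p = 0.0299 by edgeR). It missed the threshold without any 1 of 7 libraries, the lowest value being 1.17 (adjusted p = 0.086) without d7_KO_422. In WT it was at 0.800, 2.56 and 4.60 CPM on day 3 and 1.03, 7.33 and 20.05 CPM on day 7, also a log2 change of 1.57 (SE 0.61, adjusted p = 0.0856 by edgeR). The WT value passed the threshold without d7_WT_361, at 1.77 (adjusted p = 0.0415). The WT animals of day 7 were split in both genes of this pair: d7_WT_361, d7_WT_393 and d7_WT_431 were at 1.03 to 1.69 CPM for Cxcl10 and 0.496 to 2.68 CPM for Cxcl9, and the other 4 at 7.33 to 20.05 and 5.83 to 19.9 CPM.

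Cxcl16 moved by less. In WT it was at 4.75, 10.3 and 12.6 CPM on day 3 and 8.49, 20.8 and 27.3 CPM on day 7, a log2 change of 0.96 (SE 0.26, adjusted p = 0.015 by edgeR). KO libraries were at 7.20, 11.9 and 16.2 CPM on day 3 and 5.82, 18.5 and 41.2 CPM on day 7, with a log2 change of 0.63 (SE 0.31) that missed the threshold (adjusted p = 0.189 by edgeR). The groups overlapped in both genotypes.

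The CC ligands did not move together. Ccl20, known from the epithelium over lymphoid follicles, was at 1.94, 2.85 and 3.43 CPM in WT day 3 and 2.16, 5.89 and 37.8 CPM in WT day 7. Its log2 fold change in WT was 1.87 (SE 0.50, adjusted p = 0.015 by edgeR), and 1.02 (adjusted p = 0.0156) without d7_WT_393, the highest library. The KO libraries held 1.58, 2.50 and 6.89 CPM on day 3 and 1.34, 2.15 and 16.5 CPM on day 7, with a log2 change of 0.34 (SE 0.54, adjusted p = 0.729 by edgeR). Ccl28 was at 98.7, 132 and 174 CPM in KO day 3 and 82.2, 99.1 and 143 CPM in KO day 7, and fell by 0.41 on the log2 scale (SE 0.14, adjusted p = 0.0421 by edgeR). That call was lost without any 1 of 10 libraries (adjusted p = 0.0508 to 0.0859). In WT, Ccl28 was at 110, 143 and 199 CPM on day 3 and 101, 118 and 183 CPM on day 7 (log2 fold change -0.21, SE 0.15, adjusted p = 0.363 by edgeR). Ccl25 was at 2.94, 3.73 and 6.41 CPM in WT day 3 and 2.25, 3.35 and 5.92 CPM in WT day 7, and its log2 fold change was -0.24 in WT (SE 0.23, adjusted p = 0.537 by edgeR) and -0.05 in KO (SE 0.14, adjusted p = 0.868).

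In all, 6 of the 10 members were called higher on day 7 than on day 3 in WT (Cxcl2, Cxcl3, Cxcl5, Cxcl9, Cxcl16 and Ccl20), beside 10.6% of the 15541 genes tested that were higher and 8.7% that were lower by the same rule. In KO, 5 were called higher (Cxcl2, Cxcl3, Cxcl5, Cxcl9 and Cxcl10) and Ccl28 lower, beside 10.5% of 15568 genes that were higher and 8.83% lower. The median log2 fold change of the members was 1.72 in WT and 1.30 in KO, beside 0.01 and -0.01 for all genes tested. Every member passed the filter on low counts in both fits, but Cxcl3 passed through its day 7 levels. The 7 calls in KO without the library labelled d3_KO_345 were the same 6 and Cxcl1.

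**Figure D2:**
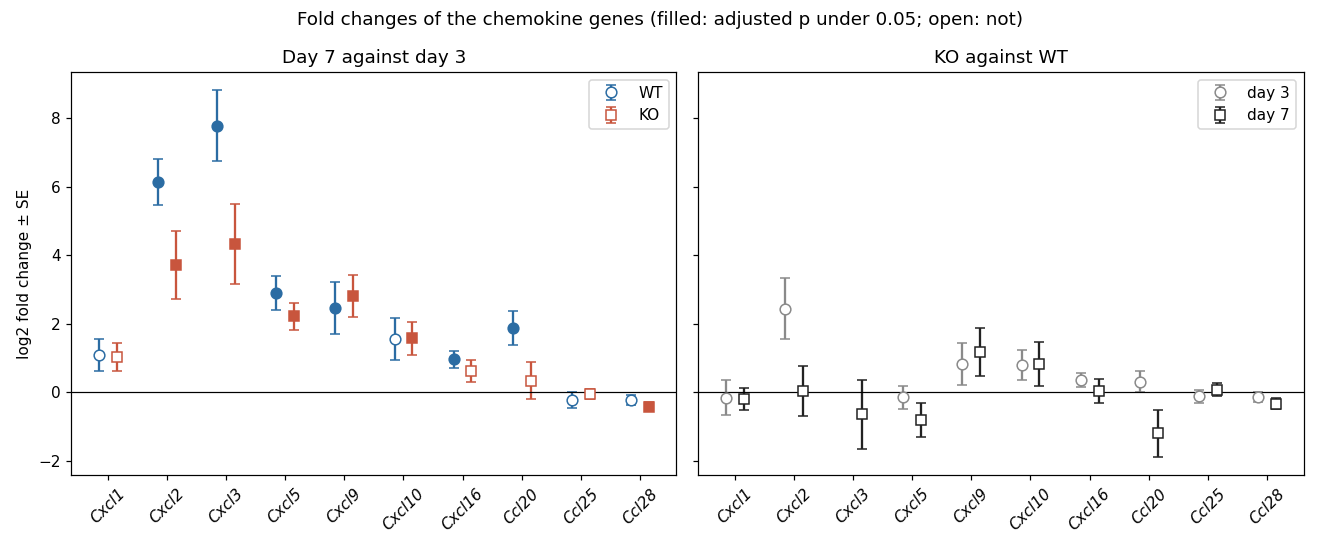
Log2 fold changes with SE from edgeR: day 7 against day 3 in WT and KO (left) and KO against WT on days 3 and 7 (right), for each member that passed the filter on low counts. Filled symbols have an adjusted p under 0.05; on the left they reach 7.78 for Cxcl3 in WT, and on the right none is filled.

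No member was called between KO and WT mice on any day. Hk2 itself was called on day 0, at a log2 fold change of -2.20 (adjusted p = 0.0331 by edgeR). It was not called on day 3 (-0.27, adjusted p = 0.802 by edgeR), on day 7 (-1.25, adjusted p = 0.291) or over both days (-0.75, adjusted p = 0.112). A missing call in these fits therefore does not show that the levels are equal. On day 0, 6 members were tested and 0.0335% of 14944 genes were called; the largest member difference was that of Cxcl5, at a log2 fold change of -0.97 (SE 0.52, adjusted p = 0.54 by edgeR). Cxcl5 was at 0.363, 0.652, 0.661 and 1.87 CPM in the WT animals and at 0.117, 0.382, 0.561, 0.595 and 0.769 CPM in the KO animals, and the groups overlapped; the difference was -0.19 without d0_WT_46. Cxcl2, Cxcl3, Cxcl9 and Cxcl10 did not pass the filter there: all their day 0 values were between 0 and 2.12 CPM, and 1 WT and 2 KO libraries had 0 counts of Cxcl3 and 1 KO library 0 counts of Cxcl9. A count of 3, the floor used here, corresponds to 0.0668 to 0.286 CPM in the day 0 libraries without TMM scaling, for counting error only. With the TMM scaling of the CPM given here it can be higher: 3 counts of Cxcl2 in d0_KO_32 were 0.352 CPM.

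On day 3, 9 members were tested and 0.00647% of 15461 genes were called. Cxcl2 had a log2 fold change of 2.43 in KO (SE 0.89, adjusted p = 0.623 by edgeR), which was 0.22 (SE 0.32, adjusted p = 0.881) without the library labelled d3_KO_345. Cxcl9 differed by 0.82 (SE 0.62) and Cxcl10 by 0.81 (SE 0.44; 0.41 without d3_KO_345), with adjusted p = 0.696 and 0.63 by edgeR. On day 7 all 10 were tested and 0.00642% of 15584 genes were called. The differences there were largest for Ccl20, at -1.20 (SE 0.68, adjusted p = 0.446 by edgeR), and Cxcl9, at 1.17 (SE 0.71, adjusted p = 0.47 by edgeR). Ccl28 had the lowest unadjusted p of the members, at a log2 fold change of -0.32 (SE 0.15, adjusted p = 0.376 by edgeR). Single libraries moved these values: Ccl20 was at -0.35 without d7_WT_393 and at -2.02 without d7_KO_420, the library with Hk2 inside the WT range. Without d7_KO_420 Cxcl3, at -0.64 (SE 1.00) with it, was at -2.53, and Cxcl2, at 0.04 (SE 0.73) with it, was at -1.05, and no member was called.

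With both days in 1 fit and the day as a term, 3 members had an unadjusted p under 0.05 as had 3523 of 16371 genes, and none an adjusted p under it, where 0.0122% of the 16371 genes were called. These were Cxcl9, at 1.01 (SE 0.49), Cxcl10, at 0.81 (SE 0.40), and Ccl28, at -0.24 (SE 0.10), with edgeR adjusted p-values of 0.227, 0.23 and 0.195. Without d3_KO_345 the differences were 0.95, 0.62 and -0.22, and Cxcl3, at 0.48 (SE 0.82) with it, was at -0.56 (SE 0.67). The change from day 3 to day 7 was not called as different between genotypes for any member; 0% of 16371 genes were called, and 440 had an unadjusted p under 0.05. Cxcl3 had the lowest unadjusted p of the members (log2 difference -3.45, SE 1.65, adjusted p over 0.99 by edgeR), and this difference was -0.55 (SE 1.74) without the library labelled d3_KO_345. By the DESeq2 Wald test no member with an adjusted p was called in any of these 5 comparisons; Cxcl5 on day 0 and Cxcl2 on day 3 got none.

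Set against untreated mice, some members were called higher on day 3 and on day 7. In WT day 3 their number was small beside the share of all genes called, so it is not read as a result about the members. The other set of libraries and the day cannot be told apart here, and the same day 0 libraries serve for both days. In WT, 3 of 9 members tested were called higher on day 3 (Cxcl1, Cxcl5 and Cxcl10), where 20.4% of 17152 genes were called higher and 25.6% lower. The log2 fold changes were 1.90 for Cxcl1 (SE 0.66), 1.48 for Cxcl5 (SE 0.45) and 1.88 for Cxcl10 (SE 0.52), with adjusted p = 0.0299, 0.0158 and 0.00898 by edgeR. The call of Cxcl1 was lost without d0_WT_41, d0_WT_43 or d0_WT_46 (adjusted p = 0.0604 to 0.0836 by edgeR). Without d0_WT_41 only 1 member, Cxcl10, was called, and without d0_WT_31 there were 5, with Cxcl2 (1.54) and Ccl20 (0.63) added. In KO, 7 of 9 were called higher on day 3 (all tested members but Ccl25 and Ccl28), where 22.6% of 16010 genes were called higher and 23.7% lower. Cxcl2, Cxcl9 and Cxcl10 did not pass the filter in the fit of day 0 alone. Their values here rest on low day 0 levels. Cxcl2 was at 0.125 to 0.769 CPM in KO day 0, and its log2 fold change on day 3 was 4.26 (SE 1.40, adjusted p = 0.021 by edgeR), or 2.00 (adjusted p = 0.000465) without d3_KO_345. Without that library 5 members were called, Cxcl16 and Ccl20 being lost at adjusted p = 0.0679 and 0.06, and without d0_KO_53 there were 4. Cxcl16 and Ccl20 were also lost without any 1 of the libraries d0_KO_24, d0_KO_32, d0_KO_53 and d0_KO_54.

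On day 7, 8 members were higher than on day 0 in WT, where 27.8% of 17428 genes passed as higher and 29.2% as lower. In KO 7 members were higher, where 27.3% of 16367 passed as higher and 27.3% as lower. Cxcl2, Cxcl3, Cxcl9 and Cxcl10 are among these calls in both genotypes, although they did not pass the filter in the fit of day 0 alone. Their calls rest on day 7 levels set against low day 0 levels, with 0 to 6 counts of Cxcl3 per WT day 0 library. The fold changes of the called members in WT ran from 1.13 for Cxcl16 (SE 0.31) to 7.96 for Cxcl3 (SE 1.64) on the log2 scale. Those in KO ran from 1.24 for Cxcl16 (SE 0.41) to 7.99 for Cxcl2 (SE 1.12), and that of Cxcl16 missed the threshold without d0_KO_53 or d0_KO_54 (adjusted p = 0.0525 and 0.0518 by edgeR). Ccl20 was called in WT, at 2.24 (SE 0.70, adjusted p = 0.0149 by edgeR), and missed the threshold in KO, at 1.54 (SE 0.67, adjusted p = 0.0647), where 4 of 7 other analyses called it (adjusted p = 0.0185 by the DESeq2 Wald test). Cxcl9 was at 0 to 0.587 CPM in KO day 0 and had a log2 fold change of 5.91 in KO (SE 0.85, adjusted p = 5.67e-05 by edgeR). In WT its fold change was 2.87 (SE 0.97, adjusted p = 0.022), lost without any 1 of 3 day 0 libraries (d0_WT_31, d0_WT_43 or d0_WT_46; adjusted p = 0.0539 to 0.0653). Ccl28 and Ccl25 were not called in either genotype: Ccl28 was at 0.05 in WT (SE 0.16) and -0.16 in KO (SE 0.14), and Ccl25 at -0.18 (SE 0.27) and -0.47 (SE 0.19, adjusted p = 0.053 by edgeR). Ccl25 in KO was called lower without d0_KO_32 (-0.53, adjusted p = 0.0388 by edgeR) or d0_KO_54 (-0.57, adjusted p = 0.0261 by edgeR). Markers of gut position moved in the same comparisons. Of 10 small intestine markers tested, 6 were lower and 1 higher in KO day 7 than in KO day 0. Apoa1 was at -6.26 and Apoa4 at -5.38 on the log2 scale there. In WT 2 of 10 were lower and 1 higher. Of 6 colon markers, 2 were higher and 2 lower in KO, and 2 were higher and 3 lower in WT. Among them Hoxd13 was higher, at 2.47 in KO and 2.18 in WT, and Aqp8 lower, at -2.65 and -1.89. The part of these markers in the members' values was not tested.

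Among animals of the same genotype and day, the pairs of members that varied most alike were Cxcl2 with Cxcl3 and Cxcl9 with Cxcl10. Deviations of log2 CPM from the mean of the own group were correlated over the 29 libraries of days 3 and 7, and 14 of 45 pairs passed an adjusted permutation p of 0.05 (Benjamini-Hochberg over the 45 pairs). For Cxcl2 and Cxcl3 the correlation was highest (r = 0.92, rho = 0.79, permutation p = 1e-05 for r, the smallest that 100000 resamples can give, adjusted p = 0.000225, n = 29). Cxcl9 and Cxcl10 followed (r = 0.80, rho = 0.82, with the same p-values for r). Cxcl1 went with Cxcl16 (r = 0.64, rho = 0.61, permutation adjusted p = 0.0009) and with Cxcl2 (r = 0.61, rho = 0.57, permutation adjusted p = 0.00112). Ccl25 ran against Cxcl5 (r = -0.70, rho = -0.59, permutation adjusted p = 0.00162) and against Ccl28 (r = -0.60, rho = -0.62, permutation adjusted p = 0.00958).

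Without the 2 libraries farthest from the median of the first gene, these 6 values of r were 0.84, 0.76, 0.59, 0.58, -0.56 and -0.58. Without the library labelled d3_KO_345 only 6 pairs passed, which were these 6, with r of 0.89, 0.79, 0.63, 0.53, -0.68 and -0.69. Within day 3 alone (n = 15) 8 pairs passed and within day 7 alone (n = 14) 2 did, Cxcl2 with Cxcl3 (r = 0.92 on day 3 and 0.94 on day 7) and Cxcl9 with Cxcl10 (r = 0.73 and 0.84). By rho no pair passed on day 3 alone (lowest permutation adjusted p = 0.0664, n = 15). On that day Cxcl2 with Cxcl3 had rho = 0.64, and r = 0.70 without the 2 farthest libraries; d3_KO_345 had 257 counts of Cxcl3, and the WT libraries of that day 1 to 10.

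**Figure D3:**
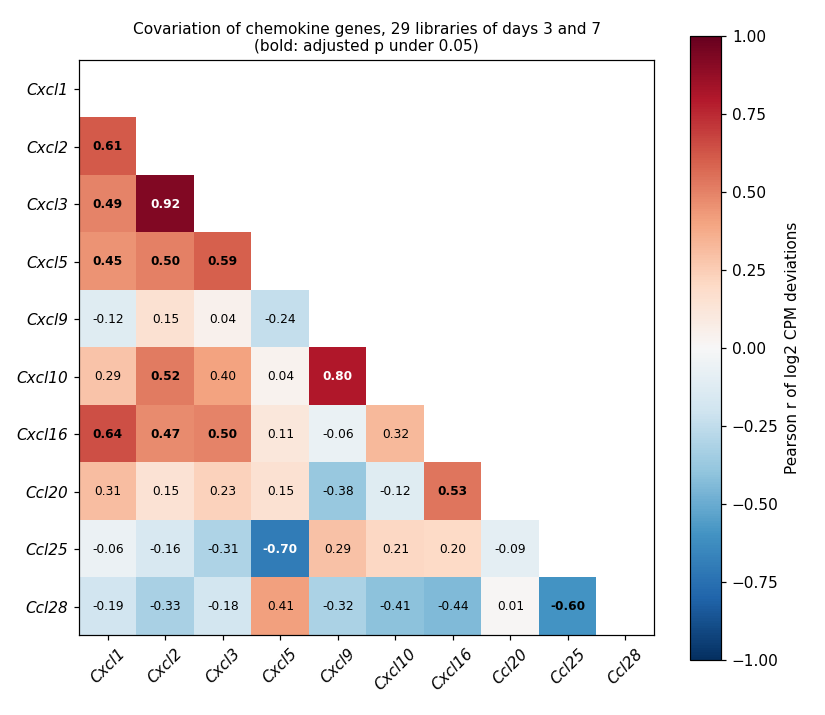
Pearson r between chemokine genes, from log2 CPM as deviations from the mean of the own genotype and day, over 29 libraries of days 3 and 7; bold marks the 14 of 45 pairs with an adjusted permutation p under 0.05. The darkest cells are Cxcl2 with Cxcl3 (0.92) and Cxcl9 with Cxcl10 (0.80), and Ccl25 is negative with Cxcl5 (-0.70) and Ccl28 (-0.60).

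Genes most like each member in this measure were taken from the 10540 other genes with a mean log2 CPM of at least 2 (n = 29 libraries, Pearson r, given as a description). Cxcl1 was closest to Nfkbia (r = 0.84) and Tnfaip3 (0.84), which encode feedback inhibitors of NF-kB, followed by Frmd4b (0.82). Cxcl2 was closest to Srgn (0.90), a proteoglycan of blood cell granules, Ptgs2 (0.90), the inducible cyclooxygenase, and Adam8 (0.88), a protease of leukocytes. Cxcl3 was closest to Adam8 (0.89), Pfkfb3 (0.86), a regulator of glycolysis, and Cd14 (0.85). Cxcl9 was closest to the interferon-induced genes Parp14 (0.85), Oasl2 (0.84) and Irf9 (0.84). Cxcl10 was closest to Tnfaip2 (0.82), Cd274 (0.80), which encodes the checkpoint ligand PD-L1, and Tmcc3 (0.76). Cxcl16 was closest to Rnd3 (0.92), Irak2 (0.91), a kinase of the interleukin 1 pathway, and Ifrd1 (0.91). Ccl28 was closest to Pigr (0.82), the receptor that carries IgA across the epithelium, followed by Slc25a12 (0.82) and Aldh1l1 (0.82), and Ccl25 to the mitochondrial transcript mt-Nd2 (0.86), Ppfia3 (0.83) and mt-Rnr2 (0.82). The highest value of a member was lower for Cxcl5 (Arhgef10l, Apoe and Smad4, 0.76 to 0.77) and Ccl20 (Pdp1, Ube2g1 and Vps16, each 0.73) than for the others.

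Markers of leukocytes moved with the same comparison. The 8 neutrophil markers (S100a8, S100a9 and others) summed to 8.06 to 44.4 CPM in WT day 3 and 150 to 1105 CPM in WT day 7, and to 13.4 to 157 CPM in KO day 3 and 123 to 1843 CPM in KO day 7. None was at 0 in all libraries of any of these 4 groups. The highest sums were in d3_KO_345, d7_WT_356 and d7_KO_420, which were also the libraries highest in Cxcl3 in those 3 groups. The 8 macrophage markers summed to 36.3 to 45.0 CPM in WT day 3 and 74.4 to 259 CPM in WT day 7, and to 31.6 to 87.4 and 74.3 to 244 CPM in KO. From day 3 to day 7, 8 of 8 neutrophil markers and 7 of 8 macrophage markers rose in each genotype. Of T cell markers 3 of 8 rose in WT and 8 of 8 in KO, and of B cell markers 5 of 5 in WT and 3 of 5 in KO. By the same rule 10.6% of all genes tested rose and 8.7% fell in WT, and 10.5% rose and 8.83% fell in KO. No epithelial marker rose, and 1 of 8 fell in KO. Of 6 colon markers 2 fell in WT and 3 in KO, among them the position gene Hoxd13, at log2 fold changes of -2.30 and -3.54, and of 9 small intestine markers tested 2 rose in WT (Alpi and Apob). T cell markers had medians of 18.5 and 44.2 CPM in WT and 22.7 and 54.5 CPM in KO on days 3 and 7.

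Within groups, Cxcl3 followed the neutrophil sum (r = 0.83, rho = 0.72, permutation adjusted p = 0.0008 over 80 pairs of a member and a marker list, n = 29; r = 0.72 without the 2 farthest libraries). Cxcl2 followed the macrophage sum (r = 0.78, rho = 0.59, permutation adjusted p = 0.004) and the neutrophil sum (r = 0.71, rho = 0.49, permutation adjusted p = 0.00496 for r and 0.0974 for rho). Without d3_KO_345 these 3 values of r were 0.80, 0.71 and 0.66. Cxcl1 had r = 0.13 and Cxcl9 r = 0.10 with the neutrophil sum (permutation adjusted p = 0.782 and 0.85). Ccl25 followed the small intestine markers (r = 0.73, rho = 0.66, permutation adjusted p = 0.0008) and also the colon markers (r = 0.63, rho = 0.62, permutation adjusted p = 0.0101), and Ccl28 ran against the colon markers (r = -0.63, rho = -0.66, permutation adjusted p = 0.00853). Leukocytes are known to make Cxcl2 and Cxcl3 themselves, and their part in the levels was not tested. With an immune marker score as a covariate, no member was called from day 3 to day 7 in either genotype. Over all genes the number called fell from 3002 to 0 in WT and from 3008 to 1 in KO. The missing calls are therefore not particular to the members. The summed immune markers were at 15.1 to 72.3 CPM in WT day 3 and 151 to 1024 CPM in WT day 7, so the score and the day are close to the same variable in WT.

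**Figure D4:**
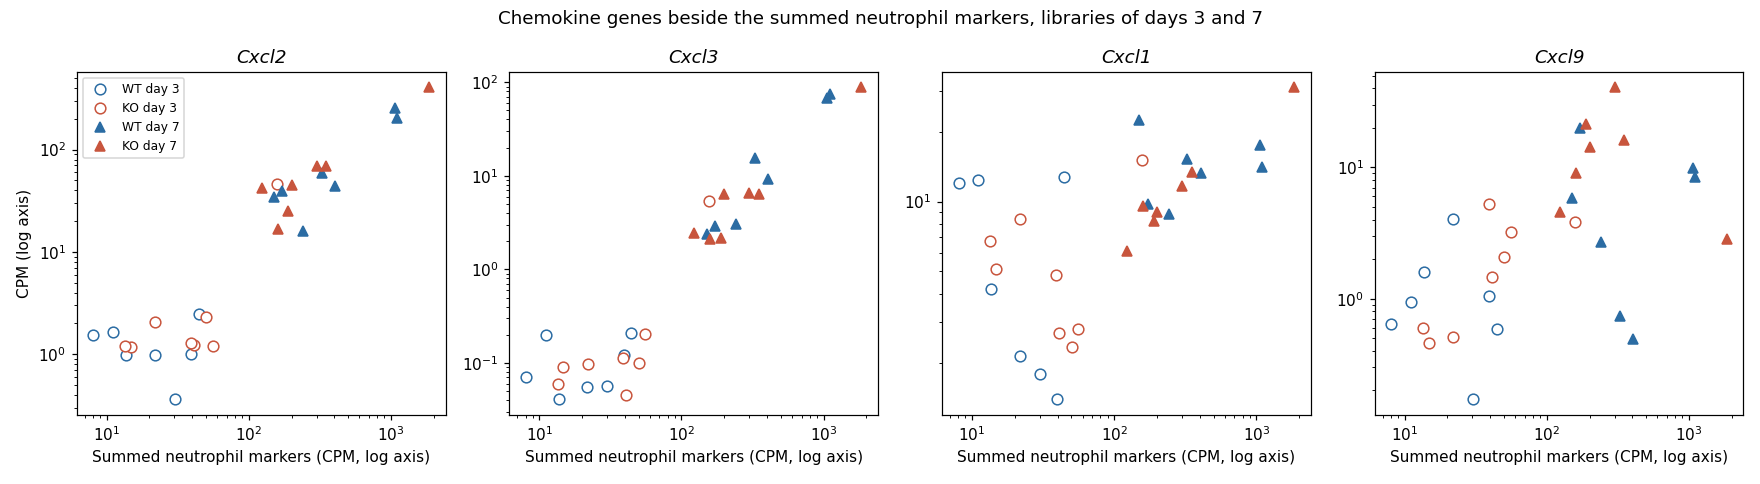
Level of 4 chemokine genes (CPM, log axis) against the summed level of 8 neutrophil markers (CPM, log axis) in the 29 libraries of days 3 (open circles) and 7 (filled triangles), WT in blue and KO in red. Cxcl2 and Cxcl3 have their 3 highest levels in the 3 libraries with the highest sums (d7_KO_420 at 1843 CPM, d7_WT_356 at 1105 CPM and d7_WT_419 at 1062 CPM), whereas d7_KO_420 is the lowest KO library of day 7 for Cxcl9, at 2.86 CPM.

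Receptors of these chemokines, most of which are known from leukocytes, were measured in the same libraries. Of 11 receptor genes 7 passed the filter in each comparison of day 7 with day 3. Of these 1 rose in WT and 2 in KO, and none fell, beside 10.6% and 10.5% of all genes tested that rose. Cxcr2, the receptor of the ELR ligands, was at 0 to 0.0838 CPM in WT day 3 and 1.30 to 30.4 CPM in WT day 7 (adjusted p = 9.73e-05 by edgeR; the day 3 level is at the detection limit, so no fold is given). In KO it was at 0 to 5.17 CPM on day 3, the highest being d3_KO_345, and 1.61 to 11.9 CPM on day 7 (adjusted p = 0.0371 by edgeR, with that library). Cxcr6, the receptor of Cxcl16, rose in KO by 0.91 on the log2 scale (adjusted p = 0.0214 by edgeR). Against day 0, 7 receptors were tested on day 7, of which 2 were higher and 2 lower in WT. In KO 3 of 7 were higher and 2 lower. By the same rule 27.8% of all genes tested were higher and 29.2% lower in WT, and 27.3% and 27.3% in KO. The day and the other set of libraries cannot be told apart there. Ackr4, a scavenging receptor that takes up Ccl25, was lower on day 7 than on day 0 in both genotypes, at a log2 fold change of -3.66 in WT and -3.30 in KO (adjusted p = 1.20e-07 and 1.11e-06 by edgeR). Ccr10, the receptor of Ccl28, was also lower, at -1.82 in WT and -1.06 in KO (adjusted p = 0.000599 and 0.0133 by edgeR). Cxcr2 was higher in both, and so was Cxcr3, at 1.92 in WT and 1.17 in KO (adjusted p = 0.0187 and 0.0428 by edgeR). Ccr9 was higher in KO, at 0.89 (adjusted p = 0.0444 by edgeR).

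Of 23 genes upstream of NF-kB, 20 were tested from day 3 to day 7 in each genotype. Of these 10 rose in WT and 9 in KO, and none fell. By the same rule 10.6% of all genes tested rose in WT and 10.5% in KO. The cytokine Il1b was at 0.603, 2.18 and 3.22 CPM in WT day 3 and 17.3, 68.6 and 312 CPM in WT day 7 (log2 fold change 5.76, adjusted p = 6.07e-05 by edgeR). Il1a rose by 6.29 in WT and 4.95 in KO, and the bacterial lipoprotein receptor Tlr2 by 1.01 and 1.13 (adjusted p = 0.000651 and 0.00016 by edgeR for Tlr2). Of 13 interferon pathway genes, 3 of 12 tested rose in WT and 7 of 13 in KO, beside the same shares of all genes. Ifng, interferon gamma itself, was at 0.0457, 0.117 and 0.229 CPM in KO day 3 and 0.241, 0.716 and 1.35 CPM in KO day 7 (log2 fold change 2.55, adjusted p = 0.000742 by edgeR). A count of 3 corresponds to 0.0631 to 0.109 CPM in KO day 3 without TMM scaling, so this fold starts near the detection limit. In WT Ifng did not pass the filter and was not tested, so the genotypes cannot be compared in it. Ifnar2, a type I interferon receptor chain, rose in both, by 0.68 in WT and 1.04 in KO. No gene of either list was called for a different change between the genotypes, and neither was any of the 16371 genes tested there.

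Of 7 genes that cut chemokines or degrade their transcripts, Adam10, which releases Cxcl16, rose by 0.49 in WT and 0.42 in KO from day 3 to day 7 (adjusted p = 0.00126 and 0.0023 by edgeR). Dpp4, which trims Cxcl9 and Cxcl10, fell by 0.38 in WT and 0.31 in KO (adjusted p = 0.011 and 0.0358 by edgeR). Zc3h12a, an RNase that limits inflammatory transcripts, rose by 0.73 in WT (adjusted p = 0.0318 by edgeR). Zfp36l1, which promotes decay of AU-rich transcripts, fell by 0.47 in WT (adjusted p = 0.0315 by edgeR). Neither was called in KO. No gene of this list was called for a different change between the genotypes, and neither was any other gene tested. Of 25 other chemokine genes, 13 were tested in WT, where 6 rose and 1 fell, and 15 in KO, where 7 rose. Over all genes tested 10.6% rose and 8.7% fell in WT, and 10.5% rose in KO. Ccl3 and Ccl4, which are made mostly by leukocytes, rose by 5.08 and 4.55 in WT and 4.24 and 3.65 in KO on the log2 scale. Ccl6 fell by 0.92 in WT (adjusted p = 0.00272 by edgeR).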

How the data were processed

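RNA was sequenced from isolated epithelial cells of 38 mice. The values as deposited are raw counts of reads per gene, which the authors made with featureCounts on paired reads without using strand (version 1.6.2 per the file headers, 1.5.2 per the submitters' processing notes). Those notes also name Trim Galore, STAR and the GRCm38 build, and the labels' protocols name a stranded mRNA kit. The headers set no option for multi-mapping reads or overlapping genes. Counts of the 2 lanes of a library were added up here; all 46078 rows name a gene. Libraries were grouped by the labels.

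Tests were edgeR 4.0.16 quasi-likelihood tests (TMM scaling, edgeR's filter on low counts, the compared groups only, Benjamini-Hochberg adjustment over all genes tested, threshold 0.05) under R 4.3.3, tested on simulated counts. SEs were derived from the F statistics. CPM and RPKM use TMM factors of all 38 libraries, with the exon length in the files for RPKM; correlations use log2 CPM with a prior count of 2, two-sided permutations within groups and 100000 resamples. Alternatives were DESeq2 1.42.0 size factors, its Wald test, other filters (none, or a mean CPM of at least 1), a fit of all libraries, marker covariates (small intestine, immune) and leaving out single libraries (88 fits). All 10 members are named; from each other list up to 3 genes per direction with the smallest p among those called, and the 3 genes most like each member. Not every gene that the rule names is given. The members, lists and tests were chosen with earlier results of these data known, and correlations with marker lists were added after the members' values were seen. Protein sequences were not used here.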

Additional observations from a re-analysis of the deposited data

Results flagged for a closer look

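Each member was examined in each of the 6 groups for a library set apart from the others of its group on the log2 scale, by the gap to its neighbour as a share of the range (60 examinations, of which chance would mark about 1 in 20). In 5 of them the highest or lowest library was set apart. The library labelled d3_KO_345 was set apart in Cxcl2, at 46.1 CPM against 2.32 CPM in the next library, and in Cxcl3, at 5.34 CPM against 0.202 CPM. Its Hk2 level also goes against its label. The library d7_KO_420 was set apart in Cxcl3, at 87.9 CPM against 6.60 CPM, and had the highest neutrophil marker sum of all libraries. Cxcl1 was low in d0_WT_41, at 1.13 CPM against 1.91 CPM in the next. Cxcl10 was high in d0_KO_60, at 1.49 CPM against 0.469 CPM.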

How the results depend on the processing

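No paired analysis was possible because the replicate numbers are animal numbers and no number occurs in more than 1 group. The directions and calls of single members were recomputed under the alternatives named under processing, and the cause of the changes was not tested. Other than by leaving out libraries, 633 values kept their direction and side of the threshold, 39 lost the threshold, 8 gained it and 35 changed sign; by leaving out a library the counts were 741, 47, 6 and 25.

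With the immune score as a covariate, the number of members called was 0 from day 3 to day 7 in WT and 0 in KO, 2 from day 0 to day 7 in WT and 0 in KO, and 3 from day 0 to day 3 in KO. With the small intestine markers as a covariate it was 3 from day 3 to day 7 in WT, and from day 0 to day 3 it was 1 in WT and 1 in KO. The number of correlated pairs was 8 in day 3 libraries alone and 2 in day 7 libraries alone.

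Changes of sign with the immune score gave these log2 values. For KO against WT on day 3 they were 0.067 for Ccl28, -0.48 for Cxcl2 and -0.034 for Cxcl10, on day 7 -0.45 for Cxcl2, and over both days -1.10 for Cxcl3, -0.44 for Cxcl2 and 0.019 for Ccl25. From day 3 to day 7 they were, in WT, 0.27 for Ccl28, -0.31 for Cxcl1, -0.33 for Cxcl9 and -2.34 for Cxcl10, and in KO -1.41 for Ccl20, -2.65 for Cxcl3, -0.79 for Cxcl1, -2.13 for Cxcl2, -1.03 for Cxcl10 and 0.25 for Ccl25. From day 0 they were -0.10 for Cxcl16 in WT day 3, -1.60 for Cxcl9, -1.98 for Cxcl10 and 0.25 for Ccl25 in WT day 7, and -1.09 for Ccl20, -3.72 for Cxcl3, -0.47 for Cxcl2 and 0.19 for Ccl25 in KO day 7. The interaction of Cxcl1 was 0.019.

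With the small intestine markers they were, for KO against WT, 0.00038 for Ccl28 and -0.061 for Ccl25 on day 0, 0.097 for Cxcl5 and 0.037 for Cxcl1 on day 3, and -0.12 for Cxcl2 on day 7, and for Ccl25 in KO 0.19 from day 0 to day 3 and 0.028 from day 0 to day 7. With a mean CPM of at least 1, Ccl25 was at -0.036 (WT day 3 against day 0) and Ccl28 at -0.027 (WT day 7 against day 0).

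When single libraries were left out, members whose sign changed had these ranges. For KO against WT they were -0.29 to 0.21 for Cxcl16 on day 0, -0.41 to 0.0082 for Cxcl5, -0.49 to 0.081 for Cxcl1 and -0.22 to 0.022 for Ccl25 on day 3, and -0.25 to 0.21 for Cxcl16, -1.05 to 0.53 for Cxcl2 and -0.0080 to 0.26 for Ccl25 on day 7. From day 3 to day 7 in KO they were -0.48 to 0.57 for Ccl20 and -0.11 to 0.048 for Ccl25, and from day 0 to day 3 in WT -0.092 to 0.18 for Ccl25. Without d3_KO_345 alone, Cxcl3 was at -0.56 and Ccl25 at 0.0089 for KO against WT over both days, the interaction of Cxcl1 was 0.30, and 6 pairs were correlated. The number of members called from day 0 to day 3 was 1 to 5 in WT and 4 to 7 in KO.

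Over all genes, the number called for KO against WT on day 0 was 5, and 175 by the DESeq2 Wald test, 52 with no filter, 1 with the immune score, 0 with the small intestine markers and 0 to 37 with a library left out. On day 3 it was 1, and 2 by DESeq2, 0 with a mean CPM of at least 1, 0 with the small intestine markers and 0 in 14 of 15 fits with a library left out. On day 7 it was 1, and 87 by DESeq2, 2 with no filter, 0 with a mean CPM of at least 1 and 38 with all 38 libraries in the fit. Over both days it was 2, and 565 by DESeq2, 159 with all libraries, 0 with a mean CPM of at least 1 and 4 without d3_KO_345. No member was among the calls. From day 3 to day 7 it was 3002 in WT and 3008 in KO, and with the immune score 0 and 1; with the small intestine markers it was 1401 in WT. From day 0 to day 7 it was 9919 in WT and 8938 in KO, and 1530 and 166 with the immune score. From day 0 to day 3 in KO it was 7409, and 4336 with the small intestine markers. Cxcl3 before day 7 and Cxcl2, Cxcl5 and Cxcl9 on day 0 rest on few counts (2 to 8 per library for Cxcl2 in KO day 0), so their folds are limited by depth.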
